A study of Bos taurus with 16 samples.

Results

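The galectins are a family of sugar-binding proteins, and their transcripts were followed here in bovine whole blood by every array probe whose symbol in the authors' deposited table of averages starts with LGALS. The rule found 19 probes of 10 genes (LGALS1, LGALS2, LGALS3, LGALS3BP, LGALS4, LGALS7B, LGALS8, LGALS9, LGALS12 and LGALSL) among 43653 non-control probes; the table names 16966 symbols in all. Blood of lactating Holstein Friesian cows was hybridised on 16 one-colour Agilent bovine arrays, 4 for each of 4 groups. The LPS group was day 60 blood of probiotic-fed cows with lipopolysaccharide, a bacterial cell wall component, added outside the animal at 100 ng/ml. The probiotic group was day 60 blood of cows fed a commercial microbial pack (products of Saccharomyces cerevisiae, Enterococcus faecium, Lactobacillus acidophilus, Bacillus subtilis and Aspergillus oryzae). The untreated group was day 60 blood of cows given water only, and the day 0 group was blood drawn before feeding began. All blood was held at 37 °C under 5% CO2 for 30 min before RNA was made.

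RNA was pooled within a group before labelling, from 5 cows per arm. The 4 arrays therefore carry the same pool hybridised again, and all p-values measure only the spread between repeat arrays, not between cows. The labels name the day 0 pool after the probiotic cows, and whether it also held untreated cows is not given in the sources used here. No slide held arrays of more than 1 group, and the slides were scanned on 3 days. The LPS and probiotic slides shared a scan day, but in their comparison the group cannot be told apart from its slide. In every other comparison the group cannot be told apart from its scan day and slide.

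Galectins bind beta-galactose-containing glycans on cell-surface and secreted glycoproteins, and they also act inside cells. The prototype members (galectins 1, 2 and 7) carry a single carbohydrate-recognition domain, the tandem-repeat members (galectins 4, 8, 9 and 12) carry a pair of different domains in one chain, and galectin-3 joins its domain to a long flexible tail. In blood, galectins 1, 3 and 9 are best known for their effects on T cells, neutrophils and monocytes. LGALS3BP encodes a secreted glycoprotein that galectins bind and is not itself a galectin, and LGALSL encodes a galectin-related protein that lacks normal lactose binding. These roles are known mainly from human and mouse.

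The probes are 60-base oligonucleotides, and those that bear on the agreement between probes are shown as the deposited table gives them, 5′ to 3′. For LGALS1, probe A_73_114897 overlaps both A_73_P099971 and A_73_P034851. The capitals mark the run of 38 bases that the first pair shares, and for A_73_P034851 only the run of 32 bases that it shares with A_73_114897 is given, all in capitals.
A_73_P099971 (LGALS1): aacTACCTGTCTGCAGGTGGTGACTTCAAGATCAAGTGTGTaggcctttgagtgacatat
A_73_114897 (LGALS1): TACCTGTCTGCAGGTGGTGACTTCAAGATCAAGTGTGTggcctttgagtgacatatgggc
A_73_P034851 (LGALS1, shared run): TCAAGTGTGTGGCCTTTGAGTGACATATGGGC
A_73_P262211 (LGALS4): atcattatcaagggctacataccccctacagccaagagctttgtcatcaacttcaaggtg
A_73_101066 (LGALS9): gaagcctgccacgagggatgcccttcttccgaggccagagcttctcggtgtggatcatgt
The LGALS4 and LGALS9 probes are shown because their genes have further probes on the array that gave other readings. Neither shares a run of 20 bases with any other probe. The gene names rest on the deposited symbols, which for all 19 probes matched the current symbol in the bovine RefSeq table. In that table (assembly ARS-UCD2.0, another assembly than the array was designed on, so no positions are given) LGALS7B and LGALS4 are neighbouring genes.

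Detection was read first, from the scanner software's own call that a spot was well above background. Of the 19 galectin probes, 7 were well above background on all 4 LPS arrays, 13 on all 4 probiotic arrays, 2 on all 4 untreated arrays and 7 on all 4 day 0 arrays. The same was true of 15.0%, 23.8%, 5.57% and 6.57% of all probes in these groups, so the untreated and day 0 arrays were dim as a whole. The 13 probes detected throughout the probiotic arrays stood for 8 genes, and they are also the 13 galectin probes kept for testing (well above background on all 4 arrays of at least 1 group). LGALS1 A_73_114897, LGALS4 A_73_P262211, LGALS8, LGALS9 A_73_101066 and both LGALSL probes were kept through the probiotic group alone. For these the filter itself favours a higher reading in probiotic blood. LGALS3 and LGALS7B had no kept probe. The 2 galectins detected on every untreated array were LGALS2 (A_73_116240) and LGALS12, which were also detected on all 16 arrays.

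**Figure D1:**
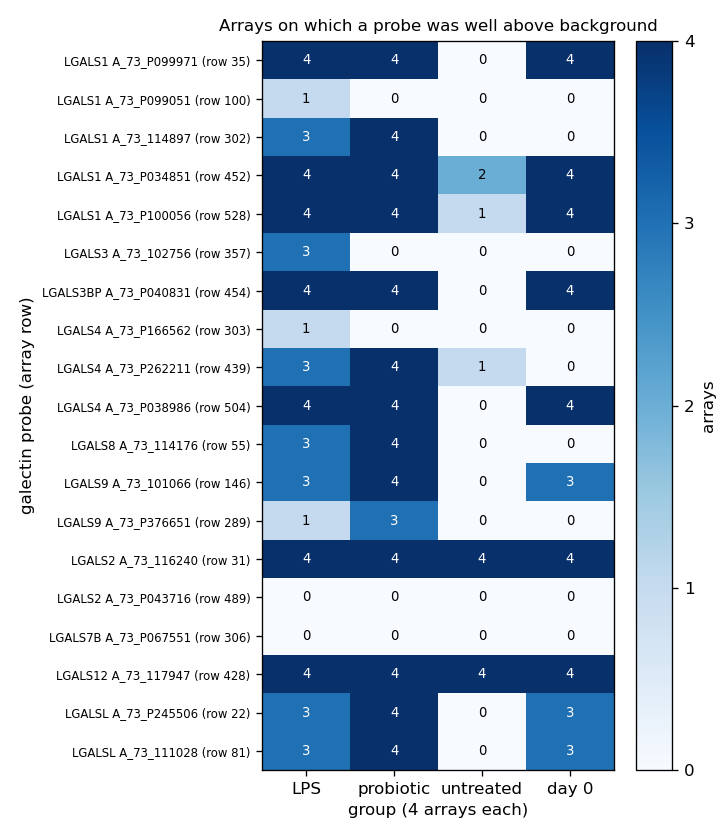
Number of arrays, out of 4 per group, on which each of the 19 galectin probes was well above background, with the array row of the probe in brackets. LGALS12 and LGALS2 A_73_116240 are filled in every group, and the untreated column is otherwise nearly empty.

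Depth and placement differed between arrays. The share of spots well above background averaged 34.4 ± 8.53% on LPS, 32.9 ± 4.70% on probiotic, 15.2 ± 3.06% on untreated and 17.9 ± 6.59% on day 0 arrays (SD, n = 4 each). Replicate 4 was the dimmest array of the LPS (22.5%), probiotic (26.4%) and day 0 (8.26%) groups. In array rows 134 to 399, the middle of the slide, 10.7% of all probes were detected on all 4 LPS arrays, 12.04% on all 4 probiotic arrays, 7.15% on all 4 untreated arrays and 2.63% on all 4 day 0 arrays, against 20.3%, 35.8%, 2.99% and 10.01% in rows 1 to 133. The middle rows held 6 galectin probes, of which 2 were detected on all 4 probiotic arrays and none on all 4 arrays of another group. The brightest spike-in probe read 45936 (median; 4770 to 119174) on LPS, 51871 (136 to 59872) on probiotic, 112 (100 to 136) on untreated and 1921 (249 to 17966) on day 0 arrays. The lowest probiotic value was on replicate 4, as low as untreated arrays, so the spike-in does not separate these groups on every array. Over all kept probes, untreated arrays had a median Spearman correlation of -0.02 with probiotic, -0.02 with LPS and 0.09 with day 0 arrays. Among themselves the untreated arrays had a median of 0.67, and probiotic with day 0 arrays had 0.75. The part of these array differences in the galectin results was not tested.

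LGALS1, the prototype galectin-1 secreted by many leukocytes, was read by 5 probes. Its probe A_73_P100056 had a net signal (spot minus local background, in scanner units) of 5545, 6301, 5833 and 95.4 on the LPS arrays, 6617, 6725, 6616 and 6178 on the probiotic arrays, 76.0, 8.51, -0.73 and 304.2 on the untreated arrays and 2147, 2038, 2109 and 378 on the day 0 arrays. The untreated arrays lay below every day 0 and probiotic array, and LPS replicate 4 stood far below the other LPS arrays. A_73_P099971 and A_73_P034851 gave the same order, with medians of 4948 and 4424 on LPS, 5169 and 4938 on probiotic, -6.80 and 80.4 on untreated and 1459 and 1414 on day 0 arrays.

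The other LGALS1 probes read differently. A_73_114897, which lies in row 302, read 229.5, 767, 2948 and 13.5 on LPS, 1403, 1213, 1418 and 47.0 on probiotic, 37.5, 34.7, 22.8 and 12.2 on untreated and 9.39, -2.63, 0.701 and 4.85 on day 0 arrays. No day 0 array passed the detection call, while the probes in rows 35 and 452 that share 38 and 32 of its 60 bases were detected on all 4. A_73_P099051, which carries another accession, was well above background on 1 of 16 arrays (LPS replicate 4, 41.9).

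**Figure D2:**
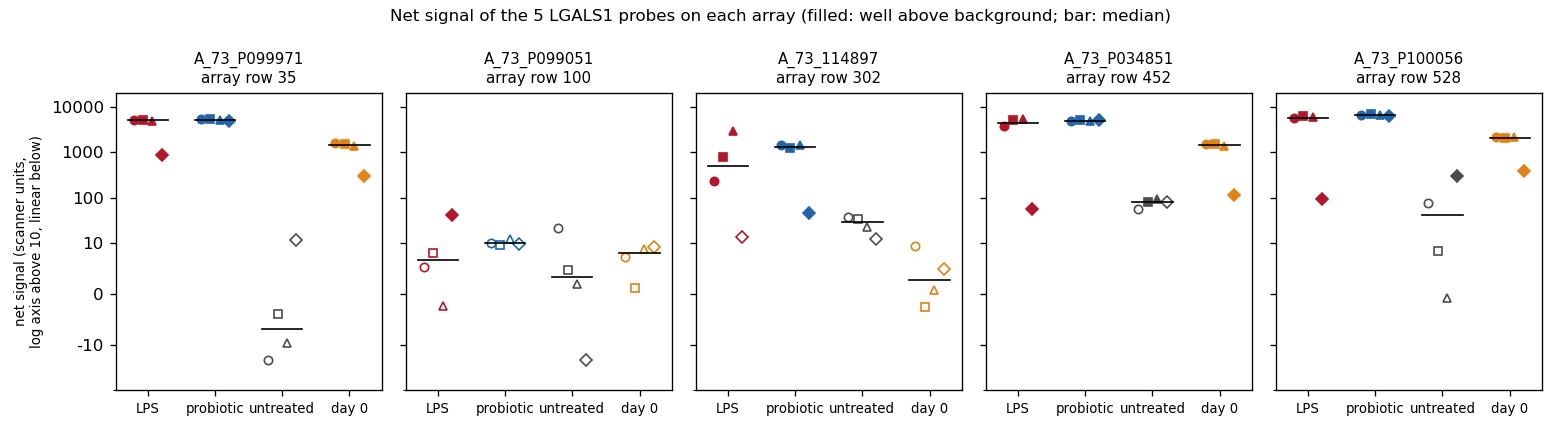
Net signal in scanner units (vertical axis, logarithmic above 10 and linear below) of the 5 LGALS1 probes on each array, ordered by array row; symbols mark replicates 1 (circle), 2 (square), 3 (triangle) and 4 (diamond), filled points are well above background and bars are medians. Probes in rows 35, 452 and 528 give the same order of groups, while the probe in row 302 is dim on day 0.

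LGALS2 and LGALS7B complete the prototype members. LGALS2 A_73_116240 read 136, 139.6, 133 and 124 on LPS, 183, 180.4, 198 and 139 on probiotic, 153.5, 120.2, 283 and 177 on untreated and 80.4, 89.3, 74.2 and 61.2 on day 0 arrays. Net signals of the probiotic and untreated arrays overlapped, and all day 0 arrays lay below the rest. The second LGALS2 probe, A_73_P043716, and the LGALS7B probe were well above background on none of the 16 arrays. The LGALS7B spot on LPS replicate 1 was marked an outlier by the scanner software and left out.

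Among the tandem-repeat members, LGALS4, best known from the epithelium of the gut, had its highest readings in day 60 blood of probiotic-fed cows, with and without LPS. A_73_P038986 read 1849, 1757, 1690 and 104.5 on LPS, 2083, 1980, 2049 and 1812 on probiotic, 46.6, 45.7, 1.57 and -6.94 on untreated and 168, 204, 182 and 38.8 on day 0 arrays. All probiotic arrays lay above all untreated and day 0 arrays. An unnamed probe that shares 42 bases with it had medians of 1197 on LPS, 1303 on probiotic, 27.1 on untreated and 81.0 on day 0 arrays, the same order.

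LGALS4 A_73_P262211, shown above, read 249, 299.9, 268 and 9.60 on LPS, 269, 303, 309 and 212 on probiotic, 70.9, 71.1, 102 and 109 on untreated and 30.6, 25.3, 16.2 and -12.7 on day 0 arrays. It was well above background on 1 untreated array and on no day 0 array. The LGALS4 probe in row 303, A_73_P166562, was detected on 1 array (LPS replicate 3, 83.5).

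LGALS12, a galectin best known from fat cells, had its highest readings in untreated blood. It read 1110, 1469, 1094 and 1625 on LPS, 1931, 1690, 1569 and 918 on probiotic, 2127, 2084, 3454 and 2522 on untreated and 734, 688, 566 and 461 on day 0 arrays. The untreated arrays lay above all others and the day 0 arrays below all others, in net signal.

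LGALS8 and LGALS9 were detected on all 4 arrays of the probiotic group alone. LGALS8, which marks damaged vesicles inside cells, read 145, 172.5, 128 and 4.92 on LPS, 146, 146, 151 and 56.3 on probiotic, 36.5, -3.48, 29.97 and -18.4 on untreated and 7.39, 7.69, 5.63 and 9.69 on day 0 arrays, and no untreated or day 0 array passed the detection call. LGALS9, a ligand of the T cell receptor TIM-3, read 256, 353, 290.3 and 20.04 on LPS, 248, 145, 214 and 97.0 on probiotic, 51.05, 31.4, 41.0 and -46.1 on untreated and 57.3, 45.2, 41.6 and 2.18 on day 0 arrays with A_73_101066. Its second probe, in row 289, was well above background on 1 LPS and 3 probiotic arrays and on no untreated or day 0 array.

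LGALS3, the chimera-type galectin of macrophages, was detected only on LPS arrays. Its probe, in row 357, read 179.9, 5.65, 1882 and 65.7 on LPS, 1.24, -1.68, -7.99 and -3.70 on probiotic, -8.36, -0.879, -17.7 and -15.4 on untreated and 3.41, 18.9, 8.24 and 3.72 on day 0 arrays. The 3 LPS arrays above background spanned 65.7 to 1882 although they hold the same pool, and the probe was not tested because LPS replicate 2 was not above background. The highest reading was on LPS replicate 3. In the band of rows that holds this probe, 49.2% of spots were well above background on that array. LPS replicates 1, 2 and 4 had 25.7%, 34.2% and 20.4% there. Galectin probes in rows 289, 302 and 303 also read highest on replicate 3 among LPS arrays, while that in row 306 was dim. The part of this in the LGALS3 values was not tested.

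Of the 2 related genes, LGALS3BP was detected on every array outside the untreated group. It read 6395, 6666, 6844 and 578 on LPS, 7520, 6717, 6640 and 5493 on probiotic, 75.3, 74.4, 39.6 and 13.9 on untreated and 1596, 1555, 1440 and 166 on day 0 arrays, with no untreated array well above background. All LGALS3BP values rest on its only probe, A_73_P040831. Runs of 20 bases shared with other probes were searched, but inexact matches to other transcripts were not, so its specificity was not tested. LGALSL A_73_P245506 read 1017, 1006, 942 and 2.25 on LPS, 996, 959.9, 932 and 828 on probiotic, -5.12, -15.4, -25.0 and -21.3 on untreated and 297, 309, 271 and 27.1 on day 0 arrays. LGALSL A_73_111028 read 469.6, 686, 365 and 1.87 on LPS, 229, 275, 189 and 54.7 on probiotic, 14.01, -9.31, 21.6 and -24.2 on untreated and 269, 243, 166 and 3.33 on day 0 arrays. Neither LGALSL probe was detected on any untreated array.

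**Figure D3:**
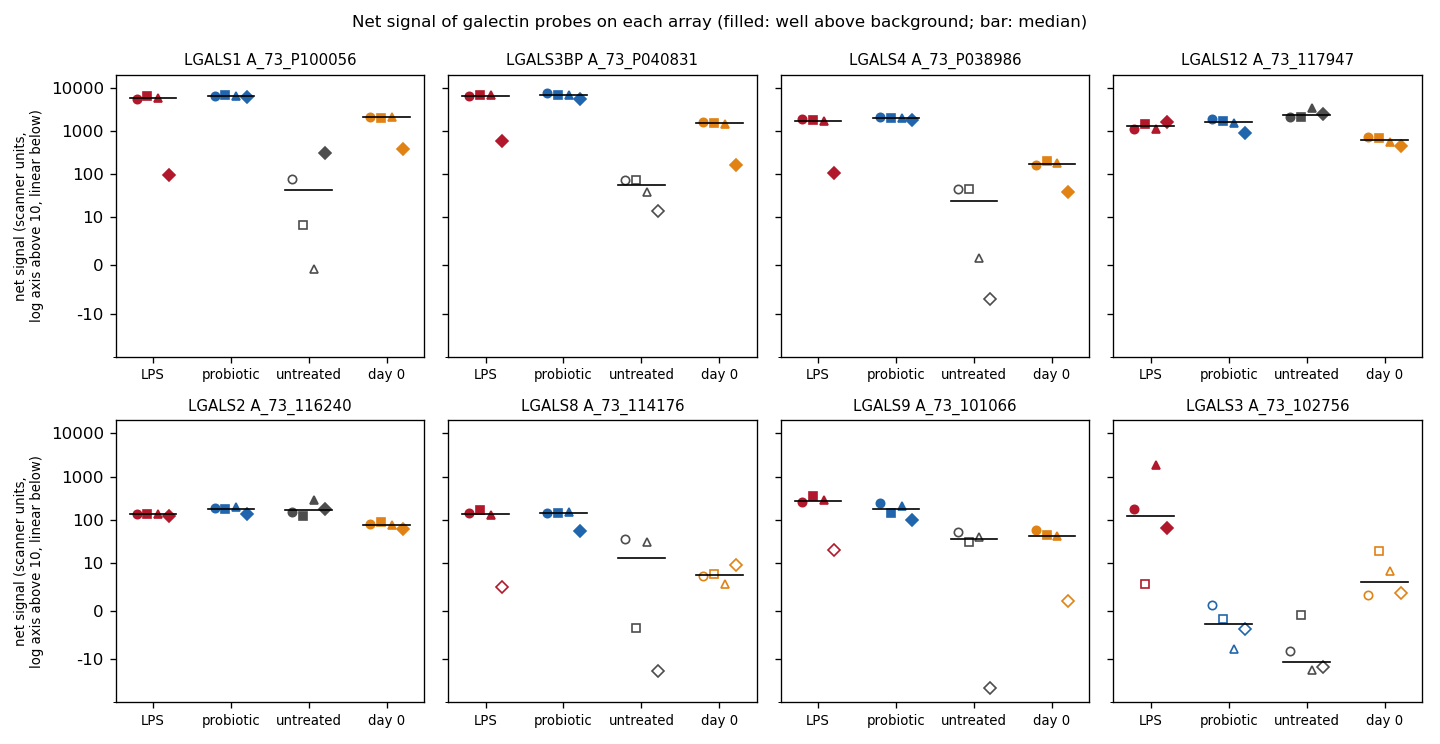
Net signal in scanner units (vertical axis, logarithmic above 10 and linear below) of 8 galectin-family probes on each array; symbols mark replicates 1 to 4, filled points are well above background and bars are medians. LGALS1, LGALS3BP and LGALS4 are low on untreated arrays, LGALS12 is highest there, and replicate 4 (diamond) is often the lowest LPS and day 0 array.

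For the tests, net signal was taken as log2 with a floor at each array's lowest detected signal and scaled to the array's 75th percentile over the 672 probes detected on all 16 arrays. That percentile was a median of 10388 on LPS, 10821 on probiotic, 1198 on untreated and 2697 on day 0 arrays, so that a given net signal scales to a higher value on an untreated array. A probe passed with a Benjamini-Hochberg adjusted p under 0.05 in limma, a fold of at least 2 and detection on all arrays of the higher group. Differences are log2 of scaled signal ± SE with 4 arrays per group.

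With LPS added to probiotic blood, no galectin probe passed the test (0 of 13 in limma, with 1 of 13 at an unadjusted p under 0.05), while 1.6% of the 12214 kept probes passed (1.49% higher and 0.106% lower, 182 and 13 probes). The median difference was -0.12 over the 13 galectin probes and 0.03 over all kept probes. The probe with the smallest p was LGALSL A_73_111028, at 1.25 ± 0.42 (adjusted p = 0.277), and the other LGALSL probe was at -0.53 ± 0.46. LGALS9 A_73_101066 was at 0.66 ± 0.38 and LGALS1 A_73_P100056 at -1.09 ± 0.64 (adjusted p = 0.931 for each). Without replicate 4 of the LPS, probiotic and day 0 groups, again no galectin probe passed; LGALS1 A_73_P100056 was then at -0.11 and LGALSL A_73_111028 at 1.17.

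Between probiotic and untreated blood at day 60, passing probes of LGALS1, LGALS3BP and LGALS4 were higher in scaled signal and those of LGALS2 and LGALS12 lower. Net signals of LGALS2 overlapped between these groups. Of 13 galectin probes 7 passed, 5 higher and 2 lower, against 26.5% of all kept probes (10.5% higher and 16% lower). LGALS1 A_73_P099971 was at least 6.19-fold higher in probiotic blood (adjusted p = 3.5e-06), the bound being set by the detection floor of the untreated arrays. A_73_P034851 differed by 2.55 ± 0.70 (adjusted p = 0.00375), with 2 of 4 untreated arrays above background, and A_73_P100056 by 2.67 ± 0.64 (adjusted p = 0.00136), with 1 of 4. The fourth kept LGALS1 probe, A_73_114897, has no fold, because its mean in probiotic blood lay under the scaled untreated floor. Probiotic replicate 4 set this, at -7.24 in scaled signal, while replicates 1 to 3, at -3.17 to -2.92, lay above the untreated floors of -4.14 to -3.22.

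LGALS3BP was at least 7.94-fold higher in probiotic blood (adjusted p = 7.9e-06). LGALS4 A_73_P038986 was at least 2.40-fold higher (adjusted p = 0.00616) and did not pass under the normexp background, where its difference was 0.91 and under the fold threshold. A_73_P262211 of the same gene was kept through the probiotic group alone, so the filter favours a higher reading in probiotic blood. Its probiotic arrays (212 to 309) all lay above all untreated arrays (70.9 to 109) in net signal. Its scaled difference was -1.68 ± 0.42 and did not pass. With 3 of 4 untreated arrays at the floor, that value mostly sets probiotic signal against the scaled untreated floor and is not read as a fold. Under scaling to all probes and under quantile normalization the difference of A_73_P262211 was positive (1.33 and 1.03), the direction that the filter favours. LGALS2 fell by 3.05 ± 0.53 (adjusted p = 8.2e-05) and LGALS12 fell by 3.81 ± 0.57 (adjusted p = 2.5e-05), and neither passed when arrays were scaled to the 75th percentile of all probes (-0.05 and -0.80).

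The median over all kept probes in this comparison was -1.78, that over the 13 galectin probes -0.51. Both medians hold dim values at the floor. Relative to the median of all, LGALS2 stood at -1.27 and LGALS12 at -2.02, and LGALS1 A_73_P034851 and A_73_P100056 at 4.33 and 4.46 with 2 and 3 untreated arrays at the floor. LGALS1 A_73_P099971, LGALS3BP and LGALS4 A_73_P038986 are bounds and have no exact distance from it. Scaling to all probes turned the split of all calls to 5812 higher and 812 lower, and quantile normalization to 4901 and 1806, where the values above had 1280 and 1956. LGALS8, LGALS9 and LGALSL A_73_111028 have no fold here, being dim on all untreated arrays with a bound under 1, and LGALSL A_73_P245506 was at least 1.12-fold higher without passing; it passed with scaling to all probes (3.18), quantile normalization (2.87) and a floor of 1 scanner unit (6.81). That probe was kept through the probiotic group alone, so the filter favours such a call. All its untreated net signals were negative, so the last value is set by the floor of 1.

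**Figure D4:**
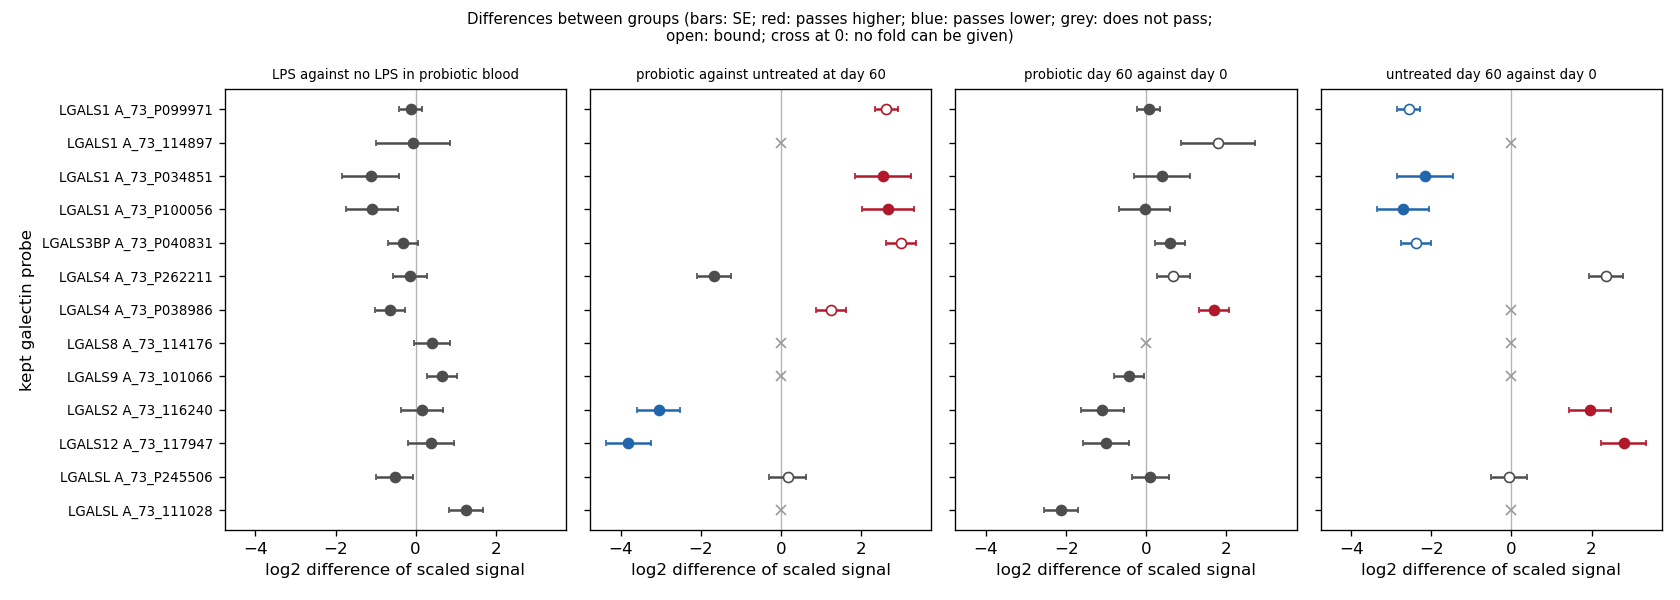
Log2 difference of scaled signal (horizontal axis) of the 13 kept galectin probes in 4 comparisons, with bars for the SE of the limma fit; red points pass higher, blue points pass lower, open points are bounds and crosses mark probes with no fold; the open point of LGALS4 A_73_P262211 for untreated blood against day 0 sets floor against floor. LPS has no passing probe, and the untreated comparisons hold the LGALS1 and LGALS3BP calls.

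Over the 60 days of probiotic feeding, 1 of 13 galectin probes passed, against 3.8% of all kept probes (1.87% higher and 1.93% lower). LGALS4 A_73_P038986 was higher at day 60 than at day 0 by 1.69 ± 0.37 (adjusted p = 0.0168). It did not pass under the normexp background (1.02) or with a floor of 1 scanner unit, nor without day 0 replicate 1 (1.64) or probiotic replicate 3 (1.71). LGALS4 A_73_P262211, kept through the probiotic group alone, was at least 1.60-fold higher and did not pass (adjusted p = 0.289). LGALSL A_73_111028 was at -2.13 ± 0.42 (adjusted p = 0.0105) and was not called, since 1 of 4 day 0 arrays was below background; without day 0 replicate 4 it passed, at -2.30.

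LGALS1 and LGALS3BP had no passing probe between day 60 of probiotic and day 0. Their scaled differences were 0.06 ± 0.29 for LGALS1 A_73_P099971, -0.04 ± 0.64 for A_73_P100056 and 0.60 ± 0.37 for LGALS3BP, although net signals on probiotic arrays were above every day 0 array. LGALS2 was at -1.09 ± 0.53 and LGALS12 at -1.01 ± 0.57 in scaled signal, opposite in sign to their net signals, and neither passed. Leaving out replicate 4 of the LPS, probiotic and day 0 groups gave 4 galectin calls in place of 1 (3 higher, 1 lower), with LGALS1 A_73_114897 among the higher ones; that probe was above background on no day 0 array, so its difference is a bound, and it was kept through the probiotic group alone. In all kept probes, scaling to all probes gave 1446 higher and 202 lower, and quantile normalization 593 and 155, where the values above had 228 and 236.

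Untreated blood at day 60 differed from day 0 in 6 of 13 galectin probes, against 22.9% of all kept probes (16.3% higher and 6.62% lower). LGALS1 A_73_P099971 was at least 5.93-fold lower in untreated blood (adjusted p = 8.0e-06), A_73_P034851 fell by 2.16 ± 0.70 (adjusted p = 0.0114) and A_73_P100056 fell by 2.71 ± 0.64 (adjusted p = 0.00139), with 2 and 3 of 4 untreated arrays at the floor. Neither of these passed with the processed signal (-1.68 and -1.62) or by the fold of the authors' deposited table (-0.51 and -0.45). LGALS3BP was at least 5.23-fold lower (adjusted p = 0.000119). LGALS2 was higher by 1.96 ± 0.53 (adjusted p = 0.00357) and LGALS12 by 2.80 ± 0.57 (adjusted p = 0.000519). With arrays scaled to all probes, LGALS2 was at -0.33 and LGALS12 at 0.51, neither passing. The comparison shares the day 0 arrays with the one before and the untreated arrays with the one against probiotic.

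The median over all kept probes was 1.92 here and that over the 13 galectin probes 0.43. Relative to the median of all, LGALS12 stood at 0.88 and LGALS2 at 0.04, and LGALS1 A_73_P034851 and A_73_P100056 at -4.07 and -4.63 with the same untreated arrays at the floor. LGALS1 A_73_P099971 and LGALS3BP are bounds and have no exact distance from it. Scaling to all probes gave 552 higher and 1825 lower calls over all probes, and quantile normalization 1673 and 1666, where the values above had 1992 and 808. LGALS8 and LGALS1 A_73_114897 were dim in both groups and have no fold. LGALS4 A_73_P262211 is given none either, since 3 untreated arrays and all 4 day 0 arrays were at the floor and the difference sets floor against floor (0.07 with scaling to all probes and 0.40 with quantile normalization), and LGALS4 A_73_P038986, LGALS9 and LGALSL A_73_111028 have a bound under 1. LGALSL A_73_P245506 was at -0.07 ± 0.46 (a bound) and did not pass. Its difference was -2.36 with scaling to all probes and -6.58 with a floor of 1 scanner unit, and it was not called there because 1 of 4 day 0 arrays was below background.

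Genes that build the sugars galectins bind, and the glycoproteins that carry them, were counted beside the family. Of 10 glycan enzymes 6 had a kept probe; none passed with LPS or over 60 days of probiotic, 2 were higher in probiotic than in untreated blood (10.5% of all kept probes), and 1 was lower in untreated blood than at day 0 (6.62% of all kept probes). They were B4GALT1, which adds galactose (2.27 ± 0.76, a bound), and MGAT2, which starts a branch of N-glycans (1.08 ± 0.29 against untreated; -1.38 ± 0.29 for untreated against day 0, bounds). Of 13 counter-receptors 10 were kept: none passed with LPS or over 60 days of probiotic, 2 were higher and 1 lower in probiotic than in untreated blood (10.5% and 16% of all kept probes), and 1 was higher and 1 lower in untreated blood than at day 0 (16.3% and 6.62% of all kept probes). ITGB2, the leukocyte integrin chain, stood at 4.92 ± 0.28 in probiotic against untreated blood and at -4.25 ± 0.28 in untreated blood against day 0 (both bounds). CD2, a T cell adhesion molecule, stood at -3.68 ± 0.60 in probiotic against untreated blood and at 3.97 ± 0.60 in untreated blood against day 0 (the second a bound, with no day 0 array above background). In net signal, CD2 had medians of 218 on probiotic and 320 on untreated arrays, much closer than the scaled values. The median scaled difference over all kept probes was -1.78 between these groups. Of 4 intracellular partners 2 were kept and none passed in any comparison.

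Markers of blood cells were low on the same arrays as LGALS1 and LGALS3BP. The net signal summed over 5 neutrophil markers ranged from 2248 to 83987 on LPS, 64015 to 93244 on probiotic, 103 to 774 on untreated and 2233 to 21430 on day 0 arrays, and S100A8, S100A9, S100A12 and CXCR2 were above background on no untreated array. The 4 T cell markers summed to 1957 to 29208 on LPS, 22038 to 28171 on probiotic, 69.5 to 870.2 on untreated and 781 to 5750 on day 0 arrays, with CD3E, CD3G and CD247 dim on all untreated arrays. The 4 monocyte markers summed to 547 to 21956, 22200 to 24661, 202 to 621 and 781 to 4666 in the same order, with CSF1R and SIRPA dim on all untreated arrays, and the 4 B cell markers to 8300 to 23406, 21275 to 26281, 2434 to 8784 and 3070 to 5781, with CD79B dim there. In pooled bulk RNA, fewer cells of a type and less RNA per cell cannot be told apart. The part of these markers in the galectin differences was not tested.

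The epithelial markers, counted because LGALS4 is expressed in epithelium, summed to 2863 to 6150 on LPS, 3933 to 9161 on probiotic, 6145 to 9809 on untreated and 98.6 to 2202 on day 0 arrays. EPCAM was above background on no probiotic, untreated or day 0 array and CDH1 on no LPS, probiotic or day 0 array. KRT19 had a median net signal of 6828 on probiotic, 6820 on untreated and 10.3 on day 0 arrays. KRT8 had medians of 994 on probiotic, 636 on untreated and 215 on day 0 arrays and was above background on every array. The part of these markers in the LGALS4 values was not tested. Platelet markers (3 on the array) summed to 72.5 to 3116 on LPS, 408 to 731 on probiotic, 34.6 to 111 on untreated and 55.9 to 180.2 on day 0 arrays, erythroid markers (4) to 8333 to 95370, 71645 to 112257, 1810 to 34585 and 1636 to 38624, and the 2 eosinophil markers on the array, CCR3 and EPX, to at most 92.6 in any group.

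Over the 16 arrays, the genes whose scaled signal followed a member most closely were FKBP2, COX4I1 and RDX for LGALS1 (Pearson r of 0.986, 0.976 and 0.968), TREM1, PARK7 and HOPX for LGALS3BP (0.996, 0.994 and 0.993), SRSF11, PRPF8 and PRKAR1B for LGALS4 (0.985, 0.978 and 0.976) and GGA1, SRPK3 and ABCA4 for LGALS12 (0.988 for each of the 3). For LGALS8 they were SCLY, WDR11 and SLC31A1, for LGALS9 GSK3B, SLC25A24 and KDM6A, for LGALS2 LOC514057, REM1 and CNGB1 and for LGALSL DICER1, SF3B1 and BCLAF1, with r of 0.985 to 0.999. These values describe arrays that fall into 4 groups and share scaling and floors, and each gene stands by 1 kept probe, the one with the highest mean (A_73_P100056 for LGALS1, A_73_P038986 for LGALS4 and A_73_P245506 for LGALSL). Probes of a gene did not all share a pattern, and r between kept probes of the same gene was -0.01 for LGALS4, 0.19 for LGALSL and -0.39 to 0.95 for LGALS1.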

How the data were processed

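The authors deposited 1 Agilent Feature Extraction (10.10.1.1) file per array, whose background-subtracted signal is an intensity in scanner units, per the file headers, and a table of log2 group averages whose scale and centring are unknown; the latter served as an alternative. RNA (0.5 µg, integrity number above 7, per the labels' protocols) was pooled by group. The net signal before the software's multiplicative detrending was used, since that step was applied to only 4 arrays. Control spots (1417 of 45220) and outlier-marked spots were left out, and spots of a probe were averaged. Spots under an array's lowest detected signal were set to it. Values were scaled to the 75th percentile over 672 probes, and 12214 of 43653 probes were tested with limma 3.58.1 (R 4.3.3), two-sided, over all 16 arrays. Figures used matplotlib 3.10.9 and tables pandas 2.3.3. The condition that the higher group be detected on all its arrays was added after seeing the data. Where a probe was dim on every array of a group, the fold is a bound against the floor, which holds under this scaling only. Alternatives changed the signal, background, scaling, floor, filter, arrays and replicate block. The scripts were tested on simulated data. The normexp alternative (offset 50) used median spot and background intensities because mean spot intensities are not used here. Every galectin probe is named; list genes were named by a rule of largest passing difference, and the 3 most alike genes by correlation. Replicate numbers were not taken as pairs. The members, lists and tests were chosen with earlier results of these data known. The number of arrays limits the precision.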

Additional observations from a re-analysis of the deposited data

Results flagged for a closer look

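In 17 of 40 sets of 4 repeat arrays with at least 3 detected, 1 array stood apart by Dixon's ratio. For a set taken alone chance gives about 1 in 20. The 40 sets share arrays, scaling and floors and are not independent, so the count cannot be set against that rate. In all 17 the array apart was replicate 4. Values are log2 scaled signal. It was the lowest LPS array for LGALS1 A_73_P034851 (-4.96), LGALS1 A_73_P100056 (-4.24), LGALS3BP (-1.64) and LGALSL A_73_P245506 (-5.54, at the floor), and the highest for LGALS2 (-3.86) and LGALS12 (-0.14). On day 0 it was the lowest for LGALS1 A_73_P099971 (-1.38), LGALS1 A_73_P034851 (-2.73), LGALS3BP (-2.22) and LGALSL A_73_P245506 (-4.34, at the floor), and the highest for LGALS2 (-3.67) and LGALS12 (-0.75). Among probiotic arrays it was the lowest for LGALS1 A_73_114897 (-7.24) and the highest for LGALS1 A_73_P034851 (-0.47), LGALS3BP (-0.37), LGALS9 A_73_P376651 (-6.32) and LGALSL A_73_P245506 (-3.10). No untreated array was among them, but only 2 of the 40 sets, LGALS2 and LGALS12, were untreated. Some of these directions turn in net signal. There replicate 4 was the lowest array for LGALS2 on LPS (124) and day 0 (61.2) and for LGALS12 on day 0 (461). It was also the lowest probiotic array for LGALS3BP (5493) and LGALSL A_73_P245506 (828). The percentile used for scaling was lowest on replicate 4 in each of these groups (1796 on LPS, 7109 on probiotic and 776 on day 0). The cause was not tested.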

How the results depend on the processing

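The count of galectin probes passing was 0 with LPS, 7 between probiotic and untreated blood, 1 between probiotic blood and day 0 and 6 between untreated blood and day 0. With the replicate number as a block it was 0, 7, 1 and 6, and over all probes 227, 3306, 681 and 2832, where the fit without it gave 195, 3236, 464 and 2800. Deviations of same-numbered arrays correlated at -0.17 to 0.34, and an array correlated best with its own number in 11 of 48 cases, and the numbers were not taken as pairs; for LPS against probiotic, numbers 2 to 4 correlated at 0.25, 0.34 and 0.17, and replicate 4 was the dimmest array in 3 groups. Without the detection condition, added after seeing the data, it was 11 and 10 for the 2 untreated comparisons and 2 for probiotic against day 0, and over all probes 8550, 8543 and 697. By the authors' averages (fold alone, no test) it was 8 with LPS, 0 between probiotic and untreated blood and 6 between probiotic blood and day 0, and over all probes 7812, 627 and 7175. For probiotic against day 0 it was 2 with scaling to all probes (1648 of all probes), 2 with a floor of 1 scanner unit (874), 3 with quantile normalization (748), 4 with the processed signal (5218), 0 with normexp (167) and 4 without replicate 4 of 3 groups (1896, chosen after seeing the data), and ranged from 0 to 3 (116 to 894) with 1 array left out; the 2 groups alone gave 1055 and no filter 999. All-probe counts with LPS were 123 (floor of 1), 120 (normexp), 49 (quantile), 98 (2 groups alone) and 405 (without replicate 4 of 3 groups). For probiotic against untreated they were 6624 (scaling to all probes), 6431 (floor of 1) and 6707 (quantile), and for untreated against day 0 1322 (processed signal). The positive-and-significant call gave 4 untreated detections in place of 2. Reversed differences for probiotic against untreated were LGALS4 A_73_P262211 (1.33 scaled to all probes, 1.03 quantile) and, by the authors' averages, LGALS1 A_73_P100056 (-0.63), LGALS4 A_73_P038986 (-0.34) and LGALS2 (0.0486). Others were LGALS2 with LPS (-1.34, authors' averages), LGALS2 against day 0 in probiotic blood (2.20 processed signal, 6.48 authors' averages), LGALS12 there (3.21, authors' averages) and LGALS2 in untreated blood against day 0 (-0.33, scaled to all probes). The cause was not tested. Dim signal limits the untreated arrays, where 14 of 19 galectin probes were on no array above background.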
